A study of Mus musculus with 72 samples.

Results

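Occlusion of the middle cerebral artery for 1 h without reperfusion was compared with sham surgery in mice that had fasted 12 h every day (IF12). The ischemia-alone group had 3 libraries and the sham group had 3 libraries, 6 of the 72 libraries of the series, and each was identified by its title in the labels. Both groups were C57BL/6 mice aged 7 months, with no allele or transgene named, and both had kept the fasting schedule for 4 months before surgery. In the ischemia-alone mice the artery was occluded for 1 h on 1 side of the brain, and tissue was taken at the end of the occlusion. A mid-coronal piece of the cerebrum on that side, which holds cortex and deeper nuclei together, was sequenced as mRNA. The rest of the series crosses 4 feeding regimens with 6 stages, namely sham, ischemia alone, and 3, 12, 24 and 72 h of reperfusion. Nothing in the labels tells whether replicates were different animals. The p-values therefore measure only the spread among the libraries of a group, and this may be technical. The comparison asks which transcripts had moved by the time the artery would have been reopened.

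Loss of blood flow depolarises neurons within minutes, releases glutamate and raises intracellular calcium. Kinases of the MAP kinase and calcium pathways then act on factors already bound to promoters, such as CREB and the serum response factor, and a set of immediate early genes is transcribed without new protein synthesis. Many of these genes encode transcription factors (Fos, Fosb, the Egr and Nr4a families), others encode brakes on the same pathways (Dusp1, Zfp36), and vessel walls have early genes of their own (Apold1, Klf2, Klf4).

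Of 16426 genes tested, 8 (0.0487%) were called at an adjusted p under 0.05 with the edgeR quasi-likelihood test and Benjamini-Hochberg adjustment. The 7 that rose (0.0426% of genes tested) were Ccn1, Apold1, Fos, Fosb, Klf4, Klf2 and Dusp1, and all of them are known as immediate early genes. The 1 that fell (0.00609%) was Heph, which encodes the ferroxidase hephaestin. At an unadjusted p under 0.05, 477 genes (2.90%) were higher and 302 (1.84%) lower, and DESeq2 called 56 genes (0.507% of the 11038 genes to which it gave an adjusted p), 54 higher and 2 lower, including all 8. The count also varied with the libraries used. It was 40 without ischemia-alone replicate 2 and 1 without sham replicate 2, and it was 2 in a fit of the 6 libraries and 1 in a fit of all 72.

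Promoters of called genes are shown because CREB and the serum response factor are known to act at immediate early promoters, so their motifs can be looked for there. RefSeq windows of GRCm38.p6 covering the 250 bases before the start site were found for all 7 genes that rose and not for Heph. The 4 runs below are on the strand of the gene, 5′ to 3′, and end where the gene begins in the RefSeq or the GENCODE M21 annotation, whichever comes first. They are chr4:55532476-55532725 on the minus strand for Klf4, chr7:19310052-19310295 on the minus strand for Fosb, chr8:72318812-72319032 on the plus strand for Klf2 and chr3:145649986-145650235 on the minus strand for Ccn1. Capitals mark TGACG, the core of the cyclic AMP response element, or its reverse complement CGTCA.
Klf4: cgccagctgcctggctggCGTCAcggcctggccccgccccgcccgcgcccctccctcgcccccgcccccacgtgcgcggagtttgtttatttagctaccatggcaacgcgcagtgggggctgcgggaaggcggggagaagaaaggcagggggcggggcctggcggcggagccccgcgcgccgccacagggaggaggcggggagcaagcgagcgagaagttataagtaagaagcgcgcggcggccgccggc
Fosb: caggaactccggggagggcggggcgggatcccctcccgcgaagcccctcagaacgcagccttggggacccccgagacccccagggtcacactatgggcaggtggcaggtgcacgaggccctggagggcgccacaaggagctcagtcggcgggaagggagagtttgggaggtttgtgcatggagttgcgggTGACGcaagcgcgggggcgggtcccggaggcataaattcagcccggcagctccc
Klf2: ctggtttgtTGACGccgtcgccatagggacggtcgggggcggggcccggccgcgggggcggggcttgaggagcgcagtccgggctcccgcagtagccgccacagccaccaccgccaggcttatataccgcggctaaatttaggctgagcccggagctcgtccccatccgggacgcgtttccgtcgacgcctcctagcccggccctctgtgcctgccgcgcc
Ccn1: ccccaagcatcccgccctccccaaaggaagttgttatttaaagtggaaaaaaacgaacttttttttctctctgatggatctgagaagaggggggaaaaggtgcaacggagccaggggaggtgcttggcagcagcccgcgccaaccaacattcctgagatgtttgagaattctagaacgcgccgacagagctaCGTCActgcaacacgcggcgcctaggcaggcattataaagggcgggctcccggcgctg
This core lies 60 to 56 bases before the start in Fosb and 58 to 54 before it in Ccn1. In Klf4 and Klf2 it lies at the far end of the window, 232 to 228 and 241 to 237 bases before the start. All 7 windows held TGACG on either strand, against 5836 of 32851 RefSeq windows of the same length (17.8%). In the windows not printed, Fos held 2 such sites, one of them 66 to 62 bases before the start, Dusp1 held 3, and Apold1 held 1, 52 to 48 bases before the start. The windows of Apold1 and Dusp1 lie inside longer gene models of GENCODE M21. The AP-1 site TGANTCA was in 0 of the 7 windows, against 6.75% of all windows. The hypoxia response core ACGTG, which can overlap TGACG in its last 3 letters, was in 3 of 7 (Apold1, Klf4 and Dusp1), against 16.6%. The serum response element, written as CC, 6 of A or T and GG, was in 0 of 7, against 1.47%, and the heat shock element was in 0 of 7, against 0.466%. These are letter matches in a fixed window and not measured binding. The windows compared were all RefSeq windows, not matched for base content, and the differences from their shares were not tested. A site more than 250 bases before the start could not be found, so 0 of 7 does not show that these promoters lack an element.

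Library totals of the 6 libraries ran from 19333084 to 24097194 counts, and 2.07 to 4.37% of counts came from mitochondrial genes. Levels are CPM (counts scaled to library size) adjusted by the trimmed mean of M values. On the first principal component of the 6 libraries (55.2% of the variance), ischemia-alone replicate 2 and sham replicate 1 stood together apart from the other 4. Each was the other's closest library, with a Spearman rho of 0.993 across genes, which are not independent replicates. Their summed markers of thalamic neurons were 289 CPM in ischemia-alone replicate 2 and 337 CPM in sham replicate 1, and ran from 115 to 160 CPM in the other 4 libraries. Their summed oligodendrocyte markers were 9941 and 9993 CPM, against 5334 to 7367 CPM elsewhere. The second component (18.9%) placed the 3 ischemia-alone libraries on one side of 0 and the 3 sham libraries on the other. Some results are also given without these libraries, an alternative added after the data were seen, and their part in the other results was not tested.

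**Figure D1:**
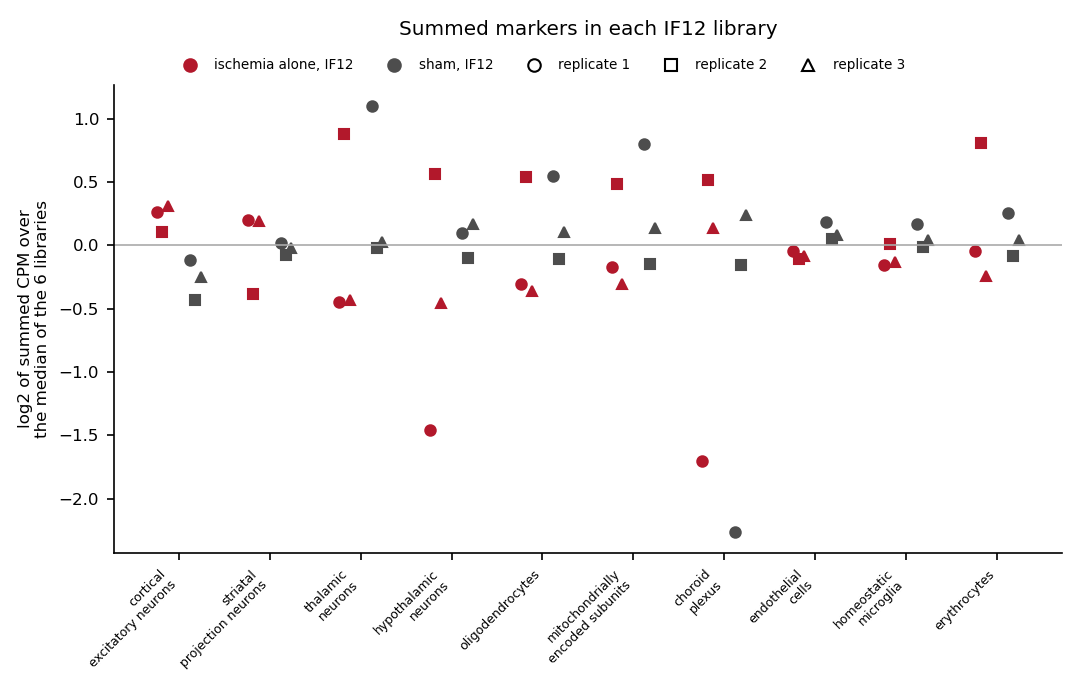
Summed CPM of 10 marker lists in each IF12 library, as log2 of the sum over its median in the 6 libraries (vertical axis), with ischemia-alone libraries in red, sham libraries in grey and the replicate number by symbol. Ischemia-alone replicate 2 and sham replicate 1 are high for thalamic, oligodendrocyte and mitochondrial transcripts, and replicate 1 of both groups is low for choroid plexus. The cortical list (ischemia alone higher) and the endothelial list (ischemia alone lower) separate the groups.

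Ccn1, a secreted matrix protein that binds integrins, showed the largest rise. It had 35.2, 70.5 and 73.2 CPM in ischemia-alone libraries and 4.01, 5.33 and 8.76 CPM in sham libraries. The groups were far apart, the lowest ischemia-alone library being replicate 1 and the highest sham library replicate 3. The log2 fold change was 3.29 ± 0.48 (SE), a 9.80-fold rise (edgeR adjusted p = 0.00906), on 759 to 1616 reads in ischemia-alone libraries and 86 to 193 reads in sham libraries.

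Apold1, an early response gene of the vascular endothelium, had 25.0, 34.3 and 30.3 CPM in ischemia-alone libraries and 3.17, 4.69 and 8.22 CPM in sham libraries. Again no ischemia-alone library came near the sham range, and sham replicate 3 was the highest of the sham libraries. The log2 fold change was 2.47 ± 0.33 (edgeR adjusted p = 0.00636).

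Klf2 and Klf4 encode zinc finger factors that respond to flow in endothelium and also occur in other cells. Klf4 had 24.0, 27.8 and 34.1 CPM in ischemia-alone libraries and 7.45, 7.55 and 8.31 CPM in sham libraries, and the sham libraries were the tightest of any called gene that rose (7.77 ± 0.469 CPM, SD, n = 3). Klf2 had 43.5, 62.9 and 69.0 CPM in ischemia-alone libraries and 14.8, 14.0 and 20.8 CPM in sham libraries. Neither gene's groups overlapped, and the log2 fold changes were 1.87 ± 0.26 for Klf4 and 1.81 ± 0.26 for Klf2 (edgeR adjusted p = 0.00636 for each).

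Fos and Fosb encode partners of the Jun proteins in the AP-1 complex. Fos had 81.3, 118 and 107 CPM in ischemia-alone libraries and 12.0, 17.3 and 27.5 CPM in sham libraries. Fosb had 55.1, 72.9 and 97.3 CPM in ischemia-alone libraries and 14.2, 14.5 and 20.8 CPM in sham libraries. Sham replicate 3 was the highest sham library for both genes and still lay below every ischemia-alone library. Fos rose by a log2 fold change of 2.42 ± 0.40 (edgeR adjusted p = 0.0309) and Fosb by 2.18 ± 0.30 (adjusted p = 0.00636). Per kilobase of gene length, the deposited FPKM averaged 90.2 ± 16.0 for Fos in ischemia-alone libraries and 17.6 ± 7.68 in sham libraries (SD, n = 3 each), above Fosb at 19.4 ± 5.58 and 4.45 ± 1.08.

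Dusp1 encodes a nuclear phosphatase that switches off MAP kinases. It had 113, 148 and 166 CPM in ischemia-alone libraries and 39.8, 47.1 and 61.1 CPM in sham libraries. The groups did not overlap, and the log2 fold change was 1.52 ± 0.26 (edgeR adjusted p = 0.0376).

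Heph, on the X chromosome (96455359 to 96574485, plus strand, GRCm38), encodes a copper-dependent ferroxidase that helps iron leave cells. It had 5.24, 6.67 and 4.82 CPM in ischemia-alone libraries and 13.6, 13.3 and 12.2 CPM in sham libraries. Every ischemia-alone library was below every sham library. The log2 fold change was -1.23 ± 0.15 (edgeR adjusted p = 0.00348, the lowest of all genes), on 98 to 153 reads in ischemia-alone libraries and 269 to 291 reads in sham libraries. Heph kept its call in each fit that left out 1 library and in the fit without both libraries that stand apart, where it was the only call, and lost it in the fit of the 6 libraries (adjusted p = 0.132). In bulk tissue, less RNA per cell and fewer cells of a type cannot be told apart.

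**Figure D2:**
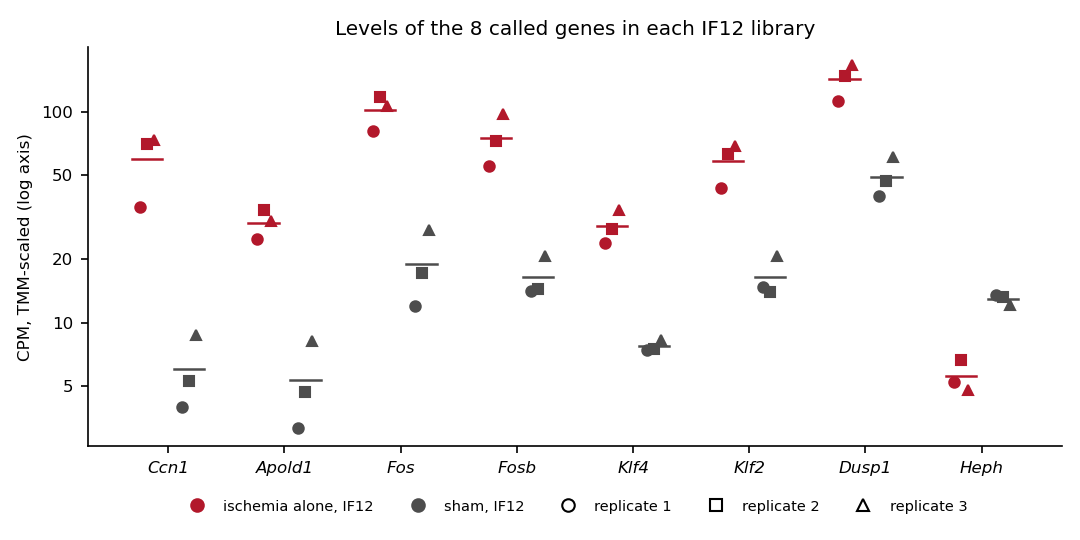
Levels of the 8 called genes in CPM (log axis) in each ischemia-alone library (red) and sham library (grey), with symbols for replicate number and bars for group means. Ischemia-alone libraries lie above all sham libraries for the first 7 genes and below them for Heph.

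The AP-1 and small Maf list had 2 of 11 tested members called, Fos and Fosb, both higher. Its median log2 fold change was 1.35, beside -0.01 over all genes tested. All 11 estimates were positive and 9 members did not overlap between groups, beside 6.09% of all genes not overlapping with ischemia higher and 4.57% with ischemia lower. Junb, the Jun protein induced most by activity, had 199, 267 and 241 CPM in ischemia-alone libraries and 64.7, 77.9 and 114 CPM in sham libraries (log2 fold change 1.46 ± 0.27, edgeR adjusted p = 0.0696, not called). Atf3, a stress-induced partner of Jun, had 4.499, 11.7 and 10.2 CPM in ischemia-alone libraries and was under 1 CPM in each sham library (3.62 ± 1.04, adjusted p = 0.529). Both genes' groups were separate, and the wide standard error of Atf3 accompanied its low level in sham brain. Fosl1 and Mafk lay near 0, with log2 fold changes of 0.04 ± 0.24 and 0.06 ± 0.26. Without the libraries that stand apart the median of this list was 1.13 and 0 members were called, and DESeq2 on all libraries called 5.

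The Egr, Nr4a and Npas4 list had 0 of 8 members called by edgeR, 7 at an unadjusted p under 0.05 and 6 called by DESeq2. All 8 estimates were positive, with a median of 1.31, and 6 members did not overlap, all with ischemia higher, beside 6.09% of all genes. Npas4, a factor found almost only in neurons and induced by calcium entry, had 74.2, 87.3 and 166 CPM in ischemia-alone libraries and 9.32, 17.1 and 18.9 CPM in sham libraries (2.84 ± 0.66, edgeR adjusted p = 0.284). Egr4 had 144, 141 and 142 CPM in ischemia-alone libraries and 44.9, 46.5 and 71.5 CPM in sham libraries (1.38 ± 0.32, adjusted p = 0.282). The ischemia-alone libraries were nearly equal for Egr4, while Npas4 was high in replicate 3. Nr4a1, an orphan nuclear receptor, had 277, 248 and 318 CPM in ischemia-alone libraries and 54.0, 89.3 and 149 CPM in sham libraries (1.52 ± 0.38, adjusted p = 0.385). Egr1 had 693, 527 and 608 CPM in ischemia-alone libraries and 204, 244 and 301 CPM in sham libraries (1.27 ± 0.31, adjusted p = 0.341). For both, sham replicate 3 again lay at the top of the sham group. Egr3 had 128, 98.7 and 183 CPM in ischemia-alone libraries and 64.1, 64.1 and 87.9 CPM in sham libraries (0.91 ± 0.19, adjusted p = 0.172). Nr4a2 overlapped because sham replicate 1, at 55.8 CPM, was as high as the ischemia-alone libraries at 55.0, 48.3 and 55.4 CPM.

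The Kruppel-like, Ier, Btg and Gadd45 list had 2 of 17 members called, Klf2 and Klf4, and a median of 0.67. Its groups did not overlap for 12 members, all with ischemia higher, beside 6.09% of all genes. Zfp36, which encodes the protein tristetraprolin that targets inflammatory mRNAs for decay, had 20.2, 35.0 and 35.1 CPM in ischemia-alone libraries and 4.70, 4.69 and 4.495 CPM in sham libraries (2.69 ± 0.47, edgeR adjusted p = 0.0512). Btg2, an early gene that restrains proliferation, had 33.8, 59.6 and 67.1 CPM in ischemia-alone libraries and 10.01, 14.9 and 16.4 CPM in sham libraries (1.95 ± 0.35, adjusted p = 0.0512). Both missed the threshold narrowly although their groups were far apart. Of the other Kruppel-like genes, Klf10 was at 0.67 ± 0.23 with groups apart, while Klf6 at 0.12 ± 0.23, Klf5 at 0.11 ± 0.28 and Klf9 at 0.23 ± 0.18 overlapped. Over these 3 early gene lists together, 35 of 36 genes had a positive estimate, 27 did not overlap with ischemia higher and 0 with ischemia lower, 4 were called by edgeR and 18 by DESeq2, and the median was 1.02.

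Effectors that neurons make in response to activity had 0 of 19 members called, 7 at an unadjusted p under 0.05 and 0 called by DESeq2, with a median of 0.36. The groups did not overlap for 11 members, all with ischemia higher, beside 6.09% of all genes. Arc, a regulator of glutamate receptor traffic at synapses, had 503, 526 and 457 CPM in ischemia-alone libraries and 131, 164 and 302 CPM in sham libraries (1.30 ± 0.41, edgeR adjusted p = 0.594). Ptgs2, the inducible cyclooxygenase, had 13.6, 14.4 and 28.4 CPM in ischemia-alone libraries and 4.89, 4.69 and 7.58 CPM in sham libraries (1.70 ± 0.51, adjusted p = 0.559). These stood above the rest of the list, and Homer1, a synaptic scaffold, was at 0.61 ± 0.18 (adjusted p = 0.536). Bdnf, a neurotrophin, was at 0.36 ± 0.21, with 20.5, 22.7 and 20.03 CPM in ischemia-alone libraries and 19.0, 13.8 and 16.1 CPM in sham libraries. Markers of cortical excitatory neurons moved with the groups: their sum ran from 2558 to 2949 CPM in ischemia-alone libraries and from 1762 to 2193 CPM in sham libraries, all 8 estimates were positive with a median of 0.37, and none of the 8 was at 0 in every library. The part of cortical tissue content in the early gene and effector values was not tested.

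In the MAP kinase feedback list, 1 of 12 members was called, Dusp1, and all 12 estimates were positive with a median of 0.39. Dusp6, the cytoplasmic phosphatase of ERK, had 84.9, 77.9 and 94.1 CPM in ischemia-alone libraries and 45.9, 38.0 and 53.9 CPM in sham libraries (0.89 ± 0.20, edgeR adjusted p = 0.282). Its groups did not overlap, and neither did those of Dusp4, Dusp5, Dusp8 and Dusp14. The Sprouty genes, slower brakes on the same pathway, overlapped between groups, with Spry1 at 0.02 ± 0.25, Spry2 at 0.22 ± 0.19 and Spry4 at 0.35 ± 0.25.

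**Figure D3:**
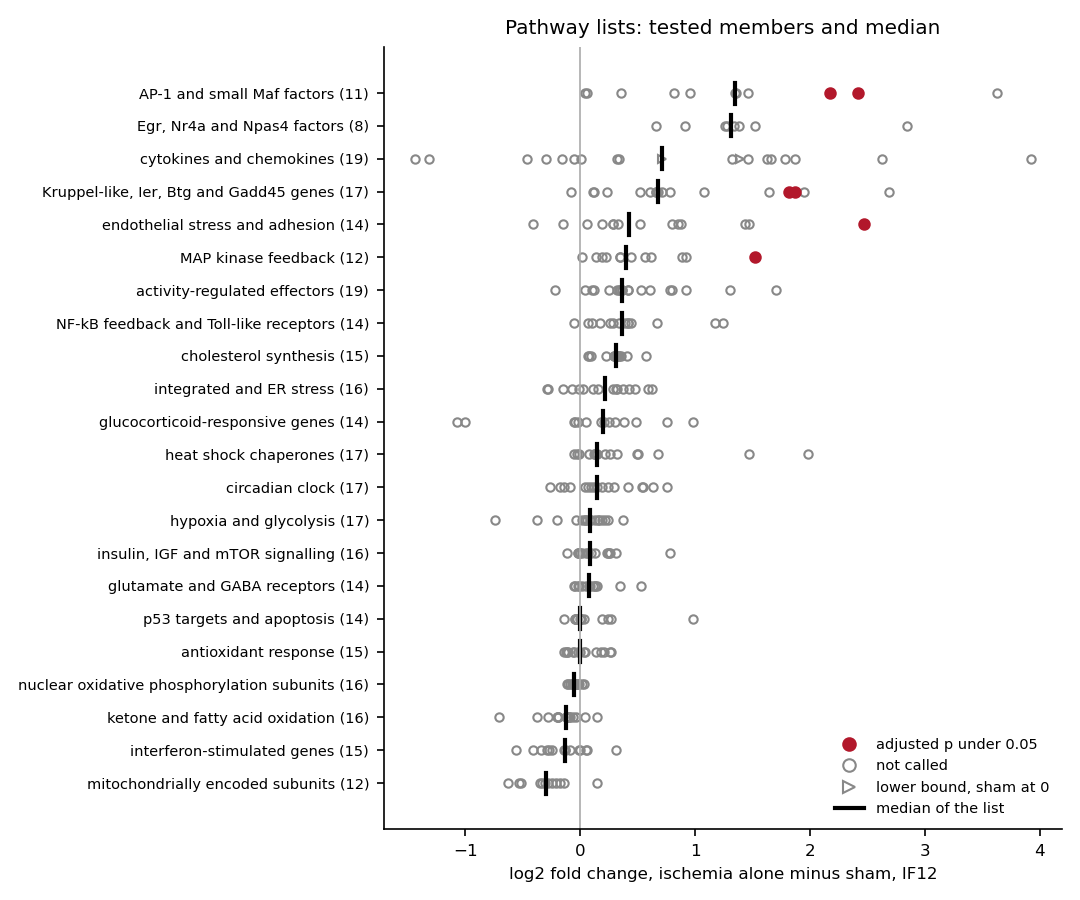
Log2 fold change, ischemia alone minus sham (horizontal axis), of each tested member of the 22 pathway lists, with the number tested in parentheses, called genes in red and the list median as a bar. Triangles are lower bounds for Ccl7 and Tnf, which had 0 reads in all sham libraries; Ccn1 and Heph are in no list, and the 6 red points fall in 4 lists. With these bounds the cytokine median is 0.71 (1.32 as fitted), below those of the AP-1 list (1.35) and the Egr, Nr4a and Npas4 list (1.31).

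Lists of slower stress programmes held no called member in IF12. Heat shock chaperones had 0 of 17 called, 2 at an unadjusted p under 0.05, 0 called by DESeq2 and a median of 0.15. Of the 17 estimates 14 were positive. Groups did not overlap for 7 members with ischemia higher and 0 with ischemia lower, beside 6.09% and 4.57% of all genes. Within that list Hspa1b, an inducible Hsp70, had 58.5, 24.4 and 65.99 CPM in ischemia-alone libraries and 15.3, 11.8 and 10.3 CPM in sham libraries (1.98 ± 0.91, edgeR adjusted p = 1), and its near-identical copy Hspa1a was at 1.47 ± 0.80, so the reads of the pair may be split between them. The constitutive chaperones lay near 0, with Hspa8 at 0.13 ± 0.21 and Hsp90ab1 at 0.15 ± 0.14. The integrated and ER stress list had 0 of 16 called, 2 at an unadjusted p under 0.05, 0 by DESeq2 and a median of 0.22. Here 11 estimates were positive, and 3 members did not overlap with ischemia higher and 0 with ischemia lower. Its master factor Atf4 had 67.6, 97.8 and 68.7 CPM in ischemia-alone libraries and 91.8, 69.5 and 73.4 CPM in sham libraries, which overlapped fully. Ppp1r15a, the phosphatase subunit that restores translation, was at 0.59 ± 0.27 with groups apart and Ddit3, which encodes CHOP, was at 0.11 ± 0.23.

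Hypoxia and glycolysis genes, the textbook targets of the hypoxia-inducible factors, had 0 of 17 called by edgeR, 1 at an unadjusted p under 0.05, 0 by DESeq2 and a median of 0.09. In this list 3 members did not overlap with ischemia higher and 1 with ischemia lower, beside 6.09% and 4.57% of all genes. Vegfa, the vascular growth factor, had 73.6, 49.6 and 73.3 CPM in ischemia-alone libraries and 51.6, 65.2 and 65.9 CPM in sham libraries, and Slc2a1, the glucose transporter of the blood-brain barrier, was at -0.04 ± 0.21. Pfkfb3, which makes the activator of phosphofructokinase, stood highest in the list at 0.37 ± 0.17 (edgeR adjusted p = 1), with 48.0, 43.4 and 53.2 CPM in ischemia-alone libraries and 35.3, 36.6 and 39.3 CPM in sham libraries. Its groups were separate by a small margin, whereas those of Vegfa overlapped.

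Of the 19 tested cytokines and chemokines, 15 stayed under 1 CPM in all 6 libraries. The list had 0 members called, 3 higher and 1 lower at an unadjusted p under 0.05, and 0 by DESeq2, with a median of 1.32 that became 0.71 when Ccl7 and Tnf, with 0 reads in sham libraries, were set at a floor of 3 reads over the group, and 0.52 as fitted without the libraries that stand apart. Ccl3, a chemokine of microglia, had 0.881, 0.828 and 0.935 CPM in ischemia-alone libraries and 0.140, 0.296 and 0.272 CPM in sham libraries (1.87 ± 0.74, edgeR adjusted p = 0.956). Osm, a cytokine of the interleukin-6 family, had 0.325, 0.262 and 0.689 CPM in ischemia-alone libraries and was under 0.1 CPM in each sham library (2.63 ± 0.89, adjusted p = 0.683). Both were separate between groups at levels under 1 CPM. Il1b, Il6 and Tnf overlapped between groups. The list of NF-kB feedback and Toll-like receptor genes had 0 of 14 called, 1 at an unadjusted p under 0.05, 0 by DESeq2 and a median of 0.36. Socs3 at 1.24 ± 0.60 and Cebpb at 1.18 ± 0.51 led the list. The NF-kB feedback genes Nfkbia and Tnfaip3 were lower in it, at 0.41 ± 0.36 and 0.39 ± 0.21.

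Among endothelial stress and adhesion genes, 1 of 14 was called, Apold1, and the median was 0.42. Icam1, which leukocytes bind, had 3.20, 6.19 and 3.44 CPM in ischemia-alone libraries and 2.61, 2.52 and 2.22 CPM in sham libraries (0.80 ± 0.53, edgeR adjusted p = 1), while Vcam1 was at 0.06 ± 0.13. Sele and Selp, the endothelial selectins, stayed under 0.2 CPM in all 6 libraries. Constitutive endothelial markers lay the other way: 0 of 9 were called, 3 were lower at an unadjusted p under 0.05, 0 were called by DESeq2, none of the 9 had a positive estimate and the median was -0.24. Their sum ran from 258 to 270 CPM in ischemia-alone libraries and from 288 to 317 CPM in sham libraries, and its part in the values of Apold1 and Klf2 was not tested. The lower side was not particular to endothelium. Estimates were positive for 0 of 9 markers of homeostatic microglia (median -0.26), pericytes and smooth muscle (-0.20) and oligodendrocytes (-0.15). Of 9 astrocyte markers 3 were positive (-0.17), and of 9 meningeal fibroblast markers 7 were (0.27).

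Cholesterol synthesis genes had 0 of 15 called by edgeR, 10 higher at an unadjusted p under 0.05 and 1 called by DESeq2, with all 15 estimates positive and a median of 0.31. Mvd, which decarboxylates mevalonate diphosphate, had 30.2, 35.5 and 31.9 CPM in ischemia-alone libraries and 21.1, 21.4 and 22.7 CPM in sham libraries (0.57 ± 0.14, edgeR adjusted p = 0.341; DESeq2 adjusted p = 0.0213). The groups did not overlap for 8 of the 15 genes, Mvd among them, all with ischemia higher, beside 6.09% of all genes. At an unadjusted p under 0.05, 2.90% of all genes were higher. The list median was 0.21 without the libraries that stand apart.

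Of the remaining pathway lists, circadian clock genes had 0 of 17 called by edgeR, 4 higher at an unadjusted p under 0.05, 1 called by DESeq2 and a median of 0.14. Per1, a clock gene that activity and glucocorticoids also induce, had 244, 163 and 225 CPM in ischemia-alone libraries and 88.8, 121 and 161 CPM in sham libraries (0.76 ± 0.23, edgeR adjusted p = 0.559). Bhlhe40, a repressor in the clock, had 132, 122 and 127 CPM in ischemia-alone libraries and 86.2, 85.7 and 89.1 CPM in sham libraries (0.54 ± 0.13, adjusted p = 0.284; DESeq2 adjusted p = 0.0119). Both were separate between groups. In the whole list 6 members did not overlap with ischemia higher and 1 with ischemia lower, beside 6.09% and 4.57% of all genes. The clock genes Clock, Npas2 and Nr1d2 overlapped. Glucocorticoid-responsive genes were mixed in sign, with 0 of 14 called by edgeR, 2 higher and 1 lower at an unadjusted p under 0.05, 0 by DESeq2, a median of 0.19, Fkbp5 at -0.04 ± 0.31 and Sult1a1 at -1.004 ± 0.36. Medians were 0.00 for antioxidant genes, 0.00 for p53 targets and apoptosis genes, 0.08 for glutamate and GABA receptors, 0.08 for insulin, IGF and mTOR signalling, -0.05 for nuclear oxidative phosphorylation subunits, -0.12 for ketone and fatty acid oxidation, -0.14 for interferon-stimulated genes and -0.30 for mitochondrially encoded subunits. The mitochondrial sum followed the libraries that stand apart, and edgeR and DESeq2 called 0 members in each of these lists, with 0 to 2 members a list at an unadjusted p under 0.05.

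Among the genes with the smallest p on the lower side, A330023F24Rik, a processed transcript on chromosome 1, had 12.9, 6.80 and 13.04 CPM in ischemia-alone libraries and 20.7, 53.4 and 41.2 CPM in sham libraries (-1.83 ± 0.35, edgeR adjusted p = 0.0891; DESeq2 adjusted p = 0.000108). Its groups did not overlap, and sham replicate 1 was the lowest of the sham libraries. Itih3, a secreted hyaluronan-binding protein, had 29.0, 37.6 and 32.1 CPM in ischemia-alone libraries and 45.3, 75.8 and 59.2 CPM in sham libraries (-0.88 ± 0.23, edgeR adjusted p = 0.414). Gli1, the transcriptional output of Hedgehog signalling, had 2.88, 2.70 and 2.21 CPM in ischemia-alone libraries and 4.89, 9.03 and 5.18 CPM in sham libraries (-1.30 ± 0.34, adjusted p = 0.414). None of these passed the test, and neither did Srarp, Cckar, Lgr6, 6720427I07Rik, Nxpe4 and Ecel1, with log2 fold changes from -1.40 to -0.53 and groups that did not overlap.

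The labelled tissue was checked against 23 lists of cell type markers, and edgeR called 0 of their members, with 0 to 3 a list at an unadjusted p under 0.05. DESeq2 called Slc17a7 and Syn1, both higher. General neuronal markers summed to 7708 to 7843 CPM in ischemia-alone libraries and 6603 to 7786 CPM in sham libraries, those of striatal projection neurons to 2148 to 3216 CPM in ischemia-alone libraries and 2666 to 2847 CPM in sham libraries, and both lists were present in each library. Ischemia-alone replicate 2 was the lowest library for the striatal list. Slc17a7, the vesicular glutamate transporter of cortical and hippocampal neurons, was at 0.54 ± 0.12 (edgeR adjusted p = 0.282; DESeq2 adjusted p = 0.00572). Markers of homeostatic microglia summed to 301 to 338 CPM in ischemia-alone libraries and 333 to 377 CPM in sham libraries, and of neutrophils to 5.98 to 8.22 CPM in ischemia-alone libraries and 5.27 to 5.40 CPM in sham libraries. The neutrophil transcripts S100a8 and S100a9 stayed at 1.13 CPM or below in every library, at 0.325, 1.00 and 0.886 CPM for S100a8 in ischemia-alone libraries and 0.0466, 0.0987 and 0.227 CPM in sham libraries (2.50 ± 0.78, edgeR adjusted p = 0.593). Choroid plexus markers summed to 357, 1657 and 1279 CPM in ischemia-alone libraries and 243, 1045 and 1369 CPM in sham libraries, low in replicate 1 of each group. Xist was under 0.1 CPM and the Y-linked Ddx3y between 34.1 and 42.5 CPM in all 6 libraries, the pattern of male tissue in both groups.

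The same contrast in the other feeding regimens used other libraries on both sides. Ischemia alone against sham gave 0 called genes (0.00%) in ad libitum mice (AL), 0 (0.00%) in every-other-day fasting (EOD) and 2 (0.0122%) in 16 h daily fasting (IF16), with 551, 366 and 354 genes at an unadjusted p under 0.05. DESeq2 called 14 (0.0865% of 16189 genes with an adjusted p), 4 (0.0155% of 25769) and 6 (0.0236% of 25407). In IF12 it gave an adjusted p to 11038 genes, so the shares are not over the same genes. Klf2 rose in IF16 and A330023F24Rik fell there. Each of the 7 genes that rose in IF12 had a positive estimate in every other regimen, from 0.70 to 2.25 in AL, 1.31 to 2.94 in EOD and 1.22 to 2.53 in IF16. Klf4, for example, averaged 17.95 ± 3.47 CPM in AL ischemia-alone libraries and 8.87 ± 1.64 CPM in AL sham libraries (SD, n = 3 each), and 28.9 ± 7.82 and 7.01 ± 1.48 CPM in the matching EOD groups. Averaged over AL, EOD and IF16 in a fit of the 24 sham and ischemia-alone libraries, a test added after the data were seen, 40 genes (0.244%) rose and 18 (0.110%) fell. All 7 genes were among those that rose, with log2 fold changes of 1.07 to 2.55 and a highest edgeR adjusted p of 0.00194, and so were Zfp36 (2.60, adjusted p = 8.35e-10), Atf3 (2.39, adjusted p = 6.98e-06) and Btg2 (1.24, adjusted p = 0.000517), which were not called in IF12 alone. The same test called 3 of 17 heat shock chaperones and 3 of 16 integrated and ER stress genes, all higher. Among them were Hspa1b (1.10, edgeR adjusted p = 0.000914) and Hspa5 (0.49, adjusted p = 0.0355), also not called in IF12 alone. Outside the stress lists, 3 of 9 meningeal fibroblast markers were called by that test, all higher (list median 0.59). Marker lists of brain regions had medians of -0.72 for striatal projection neurons and 0.44 for hippocampal neurons. The part of tissue content in these averaged values was not tested.

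The estimate for Heph was negative in all 4 regimens. Unlike these 7 genes, Heph was not called by edgeR in the mean response of AL, EOD and IF16. It averaged 5.58 ± 0.969 CPM in IF12 ischemia-alone libraries and 13.03 ± 0.716 CPM in IF12 sham libraries, 6.69 ± 0.588 and 7.72 ± 0.770 CPM in AL, 7.88 ± 0.800 and 8.56 ± 1.52 CPM in EOD, and 6.24 ± 1.05 and 8.99 ± 0.694 CPM in IF16 (SD, n = 3 each). The 3 IF12 sham libraries, at 13.6, 13.3 and 12.2 CPM, were above all 9 sham libraries of the other regimens, which ran up to 9.70 CPM. The mean response of AL, EOD and IF16 was -0.29 ± 0.09 (edgeR adjusted p = 0.236). The IF12 response minus that mean was -0.94 ± 0.18, with an edgeR adjusted p of 0.709 and a DESeq2 adjusted p of 0.0180, and the IF12 response minus the EOD response was -1.09 ± 0.22, with adjusted p of 0.643 and 0.0239. The 2 tools therefore disagree on whether the fall of Heph differed between regimens.

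Tests of the interaction itself called 0 of 16384 genes (0.00%) for IF12 against each of AL, EOD and IF16 with edgeR, with 790, 558 and 403 genes at an unadjusted p under 0.05 and 0, 2 and 1 called by DESeq2. Fosb was estimated to rise more in IF12 than in AL by 1.22 ± 0.42 on the log2 scale and Klf4 by 0.86 ± 0.27, neither past the adjusted threshold (edgeR adjusted p = 1.00 for each). In AL the 3 early gene lists had medians of 0.26, 0.27 and 0.11 and 0 called members, beside 1.35, 1.31 and 0.67 in IF12. The same medians were 0.79, 0.98 and 0.40 in EOD and 0.74, 0.55 and 0.44 in IF16. Marker lists of brain regions also differed between the AL groups, with medians of -1.80 for striatal projection neurons and 2.54 for hippocampal neurons. In IF12 these were 0.01 and 0.15. The part of tissue content in the AL values was not tested. No difference between regimens was established for these genes at 3 libraries a group.

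**Figure D4:**
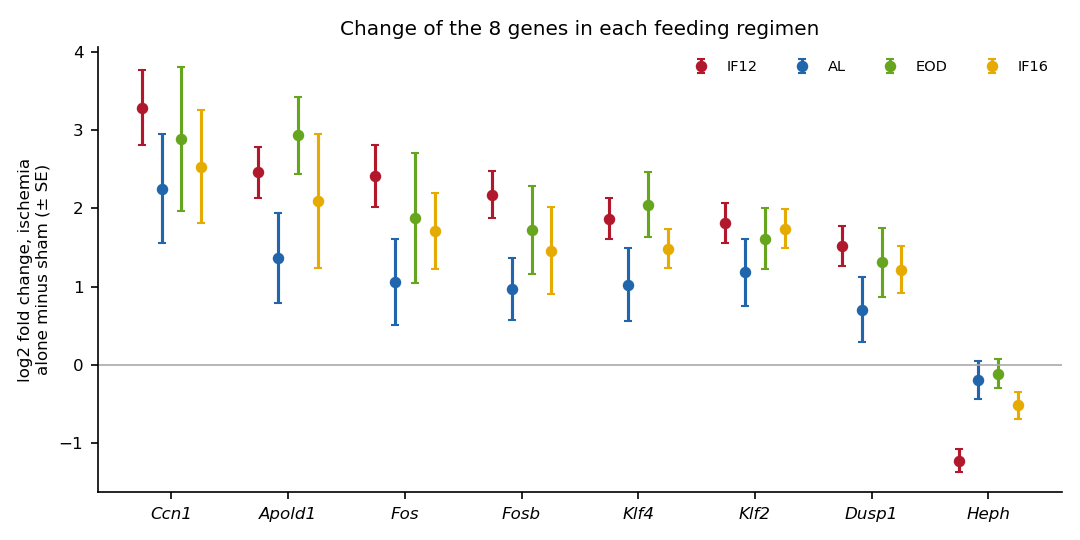
Log2 fold change, ischemia alone minus sham, with its SE (vertical axis) of the 8 called genes in IF12, AL, EOD and IF16, each from the fit of its own regimen. The 7 genes that rose in IF12 lie above 0 in all 4 regimens, and Heph lies at -1.23 in IF12 and between -0.52 and -0.12 in the others.

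The later stages of IF12 share the sham libraries, so levels are given side by side and not tested. Fosb averaged 16.5 CPM in sham, 75.1 CPM after ischemia alone, 259 CPM at 3 h of reperfusion and 19.0, 11.8 and 10.4 CPM at 12, 24 and 72 h. Fos averaged 18.9, 102, 399, 26.6, 42.4 and 17.2 CPM over the same stages. For both, ischemia alone lay part of the way to a higher level at 3 h, and levels were near or below the sham mean by 72 h. Apold1 averaged 5.36, 29.8, 32.1, 12.5, 11.0 and 6.41 CPM and Klf4 7.77, 28.6, 27.1, 13.8, 22.3 and 10.2 CPM. For both, the mean after ischemia alone lay near the mean at 3 h. Klf2 averaged 16.5, 58.5, 33.3, 25.4, 51.6 and 32.3 CPM, with its highest mean after ischemia alone. Dusp1 averaged 49.3, 142, 169, 51.0, 65.5 and 37.8 CPM and Ccn1 6.03, 59.6, 92.2, 8.85, 25.5 and 17.8 CPM, and both were high through 3 h and low at 12 h. Heph averaged 13.03, 5.58, 6.24, 13.02, 8.35 and 6.01 CPM, back at the sham level at 12 h and low again at 72 h.

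**Figure D5:**
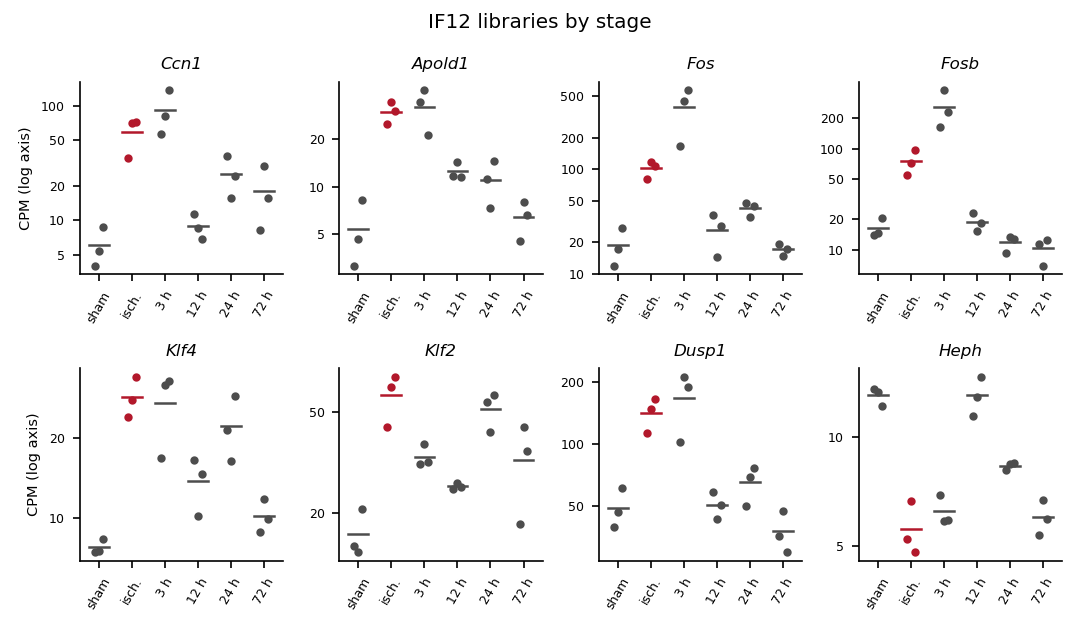
CPM (log axes) of the 8 called genes in each IF12 library at sham, ischemia alone (red) and 3, 12, 24 and 72 h of reperfusion, with bars for means of 3 libraries. Fos and Fosb are highest at 3 h, Klf2 after ischemia alone, and Heph is low after ischemia alone, at 3 h and at 72 h.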

How the data were processed

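Per the labels, mRNA from frozen brain tissue with an RNA integrity number above 7 was sequenced with standard Illumina libraries. Per the submitters' processing notes, the authors used CASAVA, TopHat2 and DESeq2 with GRCm38/mm10; the sources used here give no version, annotation, counting rule or strand setting, so genes that share or overlap sequence are uncertain. The deposited table gives whole-number counts per gene, which were tested as deposited, and FPKM, which the authors computed per gene length and library total (largest relative deviation from that formula 1.8e-07). It has 35275 genes; 34490 have a GENCODE M21 symbol and coordinates. All 72 libraries had totals of 16735707 to 24763161 counts.

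The contrast of ischemia alone minus sham was fitted to the 18 IF12 libraries with edgeR 4.0.16 in R 4.3.3 (filterByExpr, TMM scaling, quasi-likelihood F test, group only), with Benjamini-Hochberg adjusted p under 0.05 over all genes as the call. The differences between regimens used the 24 sham and ischemia-alone libraries. DESeq2 1.42.0 was an alternative, beside other scalings, filters, sample sets, a replicate block and leaving out each library. The scripts were tested on simulated data. CPM were scaled over all 72 libraries. The 2 libraries with the closest counts within a group still differed by a chi-square of 5.18 per gene, so all were kept.

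The members and the 45 gene lists (523 genes) were chosen with earlier results of these data known. Genes were named by rule: called genes with a mean of at least 1 CPM in the higher group and groups that did not overlap; where fewer than 6 were called in a direction, those with the smallest p up to 10; the 2 list members with the smallest p; and promoters of up to 4 called genes with the smallest p. Other list members were named after their values were seen, as were Zfp36, Btg2 and Atf3. The Apold1 window was replaced by the next gene because it lies inside a GENCODE gene. No library was left out of the main fit. A list member chosen by this rule is not reported here.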

Additional observations from a re-analysis of the deposited data

How the results depend on the processing

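The 8 calls became 14 with no filter on low counts, 56 with DESeq2, 2 in the fit of the 6 libraries, 1 in the fit of all 72 and 1 without ischemia-alone replicate 2 and sham replicate 1 together, and they ranged from 1 to 40 when each library was left out in turn; the cause was not tested. Other scalings and a filter at 1 CPM gave 6 to 11. Heph was called in 14 of 15 alternatives, Klf4 in 12, Apold1 in 11, Fosb, Klf2 and Ccn1 in 10, and Fos and Dusp1 in 8, always in the same direction. The interaction counts stayed at 0 except for 2 against EOD and 1 against IF16 with DESeq2. A replicate block gave 8 calls, the same 8 genes, and changed no other call. Deviations from the group means of same-numbered libraries correlated at -0.399, -0.547 and 0.352, and not every library correlated best with its own number. Those of ischemia-alone replicate 2 and sham replicate 1, which stand apart, correlated at 0.589. With 3 libraries a group and these 2 apart, the correlations cannot tell whether the numbers pair the samples. Genes never called changed sign when 1 library was left out, with ranges of -0.35 to 0.023 for Sdhb, -0.34 to 0.053 for Uqcrfs1, -2.07 to 0.056 for Prkcd, -0.54 to 0.24 for Plekhg1, -0.57 to 0.20 for S100a10, -0.74 to 0.55 for Trac, -0.21 to 0.59 for Ogn and -0.60 to 0.022 for Clic6. Without both libraries that stand apart, Slc6a13 was at -0.11 and Ogn at -0.49, against 0.37 and 0.33 with them. In that fit 13 of 45 list medians moved, and 0 members of the AP-1, Kruppel-like, MAP kinase feedback and endothelial stress lists were called. Genes under 1 CPM, such as most tested cytokines, rest on few reads.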
